A study of Homo sapiens with 12 samples.

Results

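The combination of JQ1 and mocetinostat was examined for departure from additivity in MDA-MB-231, a human breast cancer cell line of the triple-negative type (TNBC). For each probe set, the change expected if the 2 compounds acted independently on the log2 scale is the sum of their single changes, so the expected combination level is the JQ1 mean plus the mocetinostat mean minus the DMSO mean. The departure is the measured combination mean minus that expected level. All 12 of 12 arrays in the series enter it, 3 for each of 4 treatments, and it was computed for all 53617 probe sets. A positive departure is called above the sum and a negative departure below the sum, whatever the direction of the changes themselves.

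The study asked what the 2 compounds do to transcription in these cells, alone and together. Cells were treated for 48 h with DMSO (the vehicle), 1 μM JQ1, 3.17 μM mocetinostat (labelled MGCD, also known as MGCD0103) or both at the same doses, and RNA was hybridised to Affymetrix Human Gene 2.1 ST arrays. There is 1 cell line, 1 dose of each compound and 1 time point, and the study's text describes the 3 arrays per treatment as independent experiments. Values are log2 signals, on which a difference of 1 is a 2-fold difference, and the array medians lay between 3.58 and 3.66. Of the defining markers of this line, ESR1 (estrogen receptor) had group means between 3.21 and 3.83 and PGR (progesterone receptor) lay under the background level defined below, while the mesenchymal marker VIM had a DMSO mean of 10.39. Of the markers of other cell types with a probe set of their own, the leukocyte genes PTPRC, CD3E and LYZ, the endothelial gene CDH5 and the luminal gene FOXA1 had all group means under the background level, and the highest group mean of VWF was 3.75. The luminal genes GATA3 and KRT19 were well above it, at 6.68 and 9.48 with DMSO. So were the epithelial genes EPCAM and CLDN3, at 6.4 and 7.17, while CDH1 was at 3.53. ERBB2, which encodes the HER2 receptor of the TNBC definition, had no probe set of its own, so its level is not known here.

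JQ1 occupies the acetyl-lysine pocket of BET proteins, the readers that bind acetylated chromatin and help release paused RNA polymerase. Mocetinostat inhibits class I histone deacetylases, the erasers that remove those acetyl groups, so histone acetylation accumulates. One compound therefore adds the mark and the other blocks a family of its readers. On the log2 scale additivity means that the folds multiply. A gene can depart from it because one compound cancels the induction by the other, because both act on the same step and the second adds nothing, or because the pair does what neither compound does alone, and the measured levels separate these patterns without giving their cause.

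With the study's filter (unadjusted p under 0.001 and at least 2-fold, here in limma), 1066 probe sets lay above the sum (1.99% of those tested) and 939 below it (1.75%). The highest adjusted p (Benjamini-Hochberg) among them was 0.0144, and p alone would pass 53.6 probe sets by chance. In every one of these 2005 probe sets the 3 combination arrays all lay on the same side of the expected level. The filter used the same arrays and nearly forces this outcome, so it is not a further test. At 1 probe set a gene, 758 genes were above the sum (3.39% of 22392) and 651 below it (2.91%). The median departure over all probe sets was −0.01, and scaling the arrays to their ribosomal protein genes would shift every departure by 0.006. The departure carries the error of 4 means, so its median SE was 0.21 against 0.15 for a change between 2 treatments.

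Most probe sets did not depart by much. The 95% interval of the departure lay wholly within 2-fold of the sum for 39451 probe sets (73.6%). The count was 19642 among probe sets with a group mean at or above the background level defined below. A probe set under that level in every treatment can lie near the sum without showing additivity. The 29 measured ribosomal protein genes all had an interval within 2-fold of the sum, with a median departure of 0.00 and a range of −0.36 to 0.50. The 27 proteasome subunits did too, and their departures ran from −0.29 to 0.52. SREBF2, a transcription factor of cholesterol synthesis, departed by −0.14 (95% interval −0.38 to 0.11).

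Signal level was checked because a floor can force upward departures. An array signal cannot fall below its background, so a gene that each compound already brings near that level cannot reach the sum of the 2 falls. The background, or floor, was set at 3.57, the level under which 95% of 462 probe sets for olfactory receptors lay, genes that epithelial cells are not expected to express. Of the 1066 probe sets above the sum, 418 (39.2%) had an expected level under the floor, against 2 of the 939 below it and 26173 of all 53617 (48.8%). Of those 418, the combination signal stood at least 1 log2 unit above the floor in 171, and 147 were still called when values and the expected level were raised to the floor. Of the 1066 in all, 747 remained above the sum with that bound. Above the sum with an expected level at or above the floor were 648, of which 480 had an expected level at least 1 log2 unit above it. A ceiling touched few probe sets: 6 below the sum had an expected level above the highest signal on any array (13.85).

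**Figure D1:**
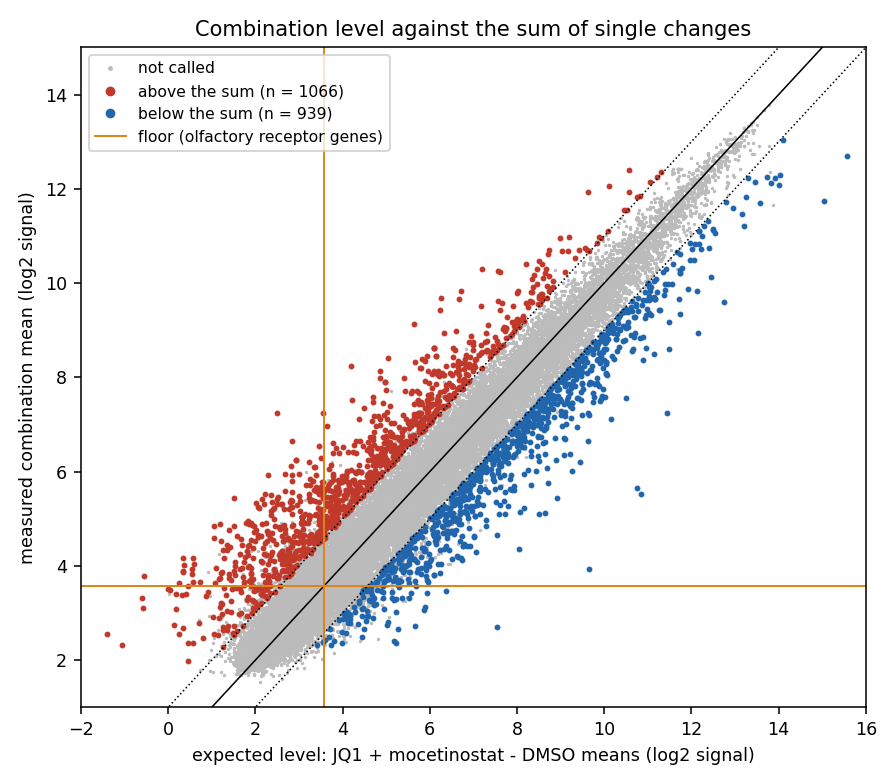
Measured combination mean against the level expected from the sum of the single changes, both in log2 signal, 1 point per probe set (means of 3 arrays). The solid line is additivity, the dotted lines lie 2-fold from it and the orange lines mark the floor at 3.57; 418 of the 1066 red points (above the sum) lie left of the vertical floor line, while all but 2 of the 939 blue points (below the sum) lie right of it.

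With the sum taken over linear signals in place of log2 signals, 2 of the 1066 probe sets above the sum and 12 of the 939 below it changed the sign of their departure. These counts say little about the choice of scale, because the sign could not change for a probe set above the log2 sum that both compounds moved the same way, as in the 563 both lowered, or for one below it that they moved in opposite ways.

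What each compound did alone sorted the departures. By the same filter JQ1 lowered 2.51% and raised 1.51% of all probe sets, and mocetinostat lowered 3.14% and raised 4.66%. Where both compounds lowered a probe set, 563 of 759 (74.2%) were above the sum and 1 was below it. Where both raised it, 191 of 400 (47.8%) were below the sum and 3 were above. Where mocetinostat raised it and JQ1 was not called, 377 of 2033 (18.5%) were below the sum and 54 above. Where JQ1 raised it and mocetinostat was not called, 98 of 407 (24.1%) were below and 4 above. Where JQ1 lowered it and mocetinostat raised it, 23 of 64 (35.9%) were below and 7 (10.9%) above. Neither compound alone was called for 231 of the probe sets above and 230 of those below. The single changes and the departure use the same arrays, and a group mean that is low by error enters both, so these shares describe the arrays and are not independent tests.

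**Figure D2:**
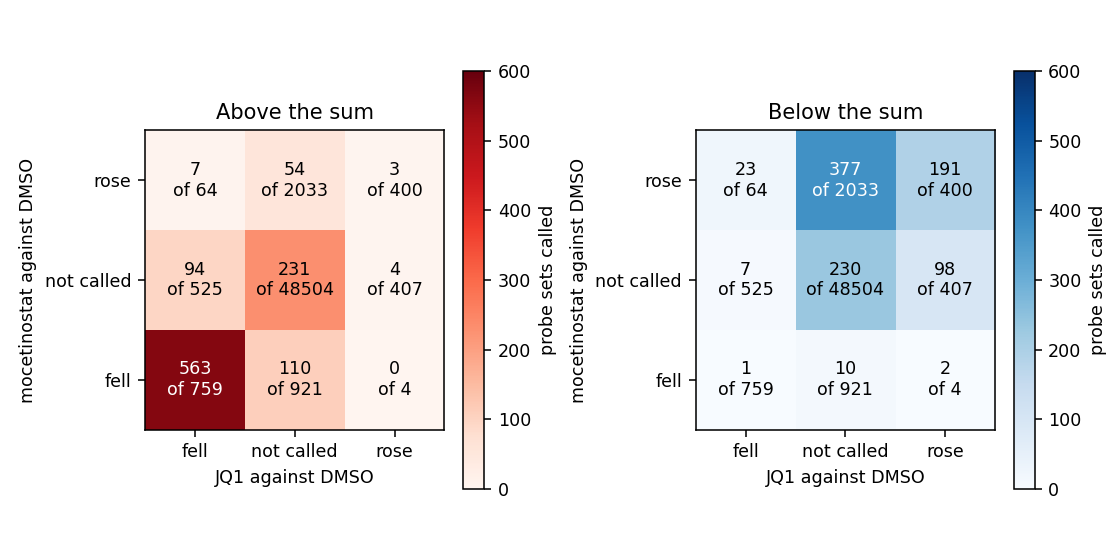
Number of probe sets above (left) and below (right) the sum, by whether JQ1 (columns) and mocetinostat (rows) alone lowered, did not change by the filter, or raised them; each cell gives the called number and the number in the cell, and the colour scale is the called number. The 563 of 759 at the lower left (both lowered) and the 377 of 2033 and 191 of 400 along the upper row of the right panel hold most departures.

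Mocetinostat-induced genes below the sum were led by secreted inflammatory and epithelial proteins. CXCL5, a chemokine that attracts neutrophils, read 3.72, 3.85 and 3.95 with DMSO, 4.08, 3.84 and 4.10 with JQ1, 9.36, 9.64 and 9.44 with mocetinostat, against 3.98, 3.78 and 4.03 with the combination. The 3 mocetinostat arrays stood far above the other 9, which overlapped. The combination was 47.0-fold below mocetinostat alone, and the departure was −5.72 (SE 0.17, adjusted p = 3.1e-08), the lowest of any probe set. CCL20, the ligand of the chemokine receptor CCR6, read 3.93, 3.76 and 4.02 with DMSO, 3.95, 3.98 and 3.92 with JQ1, 10.89, 10.82 and 10.70 with mocetinostat, against 5.49, 5.58 and 5.47 with the combination. Here the combination kept a part of the induction, above every DMSO and JQ1 array and 39.0-fold below mocetinostat (departure −5.33, SE 0.13, adjusted p = 1.3e-08). With DMSO both genes lay within 1 log2 unit of the floor, so a fall with JQ1 alone would be hard to see on these arrays.

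The chromosomal positions and upstream sequences of these 2 genes are shown because both hold a match to the NF-κB consensus, the site bound by the transcription factor that drives many cytokine genes. The 250 bases before the annotated start are from RefSeq (GRCh38.p14), written 5′ to 3′ on the strand of the gene, with the match in capitals. CXCL5 lies on the minus strand at chr4:73998678-73998927 and CCL20 on the plus strand at chr2:227813592-227813841. The capitals start 91 and 79 bases before the start, and those of CXCL5 hold 2 overlapping matches, 1 on each strand. In CCL20 the match is on the opposite strand.
CXCL5: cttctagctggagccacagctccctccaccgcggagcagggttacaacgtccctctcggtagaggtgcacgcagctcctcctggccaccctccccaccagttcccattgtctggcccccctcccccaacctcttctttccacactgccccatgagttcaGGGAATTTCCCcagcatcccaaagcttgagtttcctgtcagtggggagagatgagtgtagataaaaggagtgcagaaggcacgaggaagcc
CCL20: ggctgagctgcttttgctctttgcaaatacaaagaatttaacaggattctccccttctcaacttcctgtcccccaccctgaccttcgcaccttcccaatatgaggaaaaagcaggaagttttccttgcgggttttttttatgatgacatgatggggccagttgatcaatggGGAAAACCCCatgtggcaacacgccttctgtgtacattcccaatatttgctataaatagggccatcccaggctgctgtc
Searched on both strands, the consensus was present in 5.74% of 15487 genes with a probe set and a promoter of this length, and in 10 of the 19 NF-κB list genes with one (52.6%). Among genes below the sum that mocetinostat raised and JQ1 did not, 20 of 196 held it (10.2%). The letters of the AP-1 site (TGANTCA) were about as frequent there, in 19 of 196 (9.69%) against 5.37% of all genes. Within the NF-κB list, the consensus was in 3 of 7 genes below the sum (42.9%) and 1 of 2 above it. It was thus not more frequent in the listed genes below the sum than in the whole list. These matches are descriptions of the letters and not evidence of binding.

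Over the whole list of 23 measured NF-κB cytokines and targets, 8 were below the sum and 2 above it, with a median departure of −0.69 against −0.03 over all genes. Mocetinostat raised 16 of them and JQ1 lowered 12, and 16 were lower with the combination than with mocetinostat. IL1A, the proinflammatory cytokine interleukin-1α, read 8.48, 8.56 and 8.31 with DMSO, 4.31, 4.43 and 4.51 with JQ1, 11.15, 11.15 and 11.22 with mocetinostat, against 4.86, 5.23 and 5.20 with the combination. The 4 treatments did not overlap, and the combination stood close to JQ1 and under DMSO. It was 67.6-fold below mocetinostat, while JQ1 lowered IL1A by 4.03 log2 units from DMSO. The measured JQ1 fall was thus larger from the mocetinostat level than from the DMSO level (departure −2.05, SE 0.16, adjusted p = 1.3e-05). The 3 JQ1 arrays lay within 1 log2 unit of the floor, where the fall from DMSO may be cut short and the departure lowered. The part of this in the departure was not tested. IL24, a cytokine of the interleukin-10 family, departed by −2.61 (SE 0.21) and IL1B by −2.21 (SE 0.23), both also lowered by JQ1 and raised by mocetinostat. PTGS2, the inducible prostaglandin synthase, departed by −2.44 (SE 0.19) and kept a combination mean 1.38 above DMSO.

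Other members of the list were near additivity or above it. CXCL8, the chemokine interleukin-8, read 7.68, 7.55 and 7.33 with DMSO, 6.21, 6.01 and 5.68 with JQ1, 11.29, 11.53 and 11.37 with mocetinostat, against 9.17, 9.17 and 9.12 with the combination. Its departure of −0.69 (95% interval −1.13 to −0.26) did not pass the filter. ICAM1, an adhesion molecule, departed by 0.58 (95% interval 0.28 to 0.87), also short of it. Above the sum were TNFAIP3, the ubiquitin-editing inhibitor A20 that feeds back on NF-κB, at 2.01 (SE 0.19, adjusted p = 3.7e-05), and the cytokine IL11 at 1.81 (SE 0.13, adjusted p = 6.4e-06). TNFAIP3 was lowered 2.48 log2 units by JQ1 alone, but with mocetinostat present JQ1 made a difference of −0.47. IL6 (−1.06) and CSF3 (−1.83) are among the 8 below the sum but lost the call when single arrays were left out. IL6 departed by −0.93 without DMSO replicate 2, −0.99 without JQ1 replicate 2 and −0.99 without combination replicate 1, and CSF3 stayed between −1.63 and −1.92 in the 9 fits where it missed the p of the filter, those without DMSO replicate 1 or 2, JQ1 replicate 2, any mocetinostat array or any combination array.

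**Figure D3:**
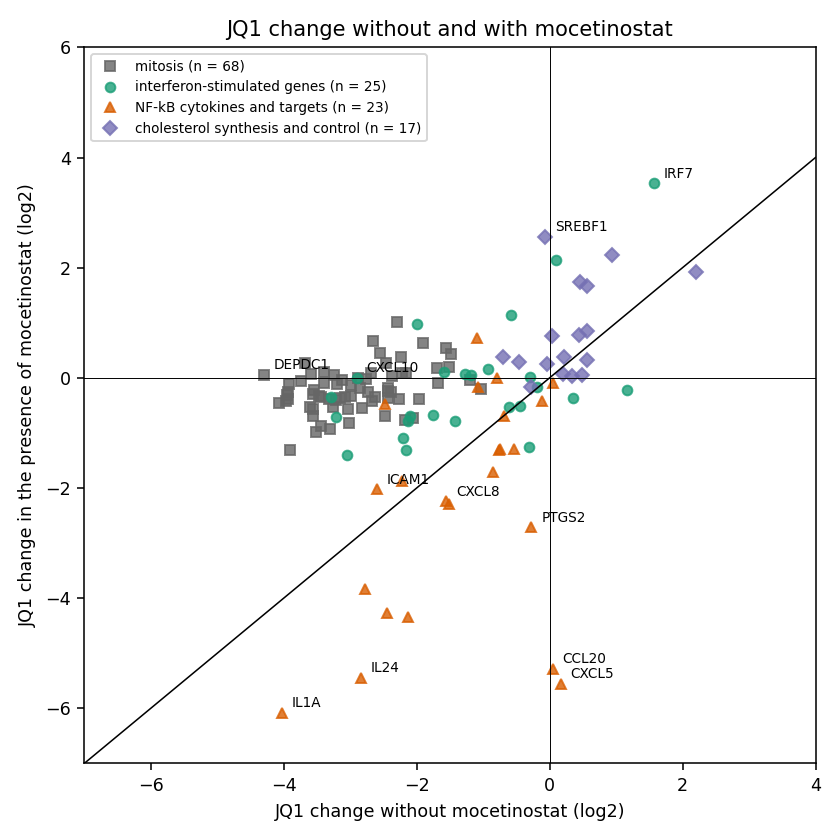
Log2 change made by JQ1 without mocetinostat (horizontal, against DMSO) and in the presence of mocetinostat (vertical, combination against mocetinostat) for members of 4 gene lists, 1 point per gene; the diagonal is additivity, since the vertical distance to it is the departure. Mitosis genes lie above the diagonal and near a vertical value of 0, while CXCL5 and CCL20 lie near a horizontal value of 0 and more than 5 log2 units below it.

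Genes of epithelial defence followed the chemokines. Of 12 measured, 5 were below the sum and 0 above. LCN2, lipocalin-2, which binds bacterial iron carriers, read 5.51, 5.79 and 5.46 with DMSO, 5.25, 5.30 and 5.10 with JQ1, 11.08, 10.98 and 11.31 with mocetinostat, against 5.45, 6.08 and 5.46 with the combination. The combination arrays overlapped DMSO, 44.0-fold below mocetinostat (departure −5.09, SE 0.24, adjusted p = 4.1e-07). LCN2 was about 2 log2 units above the floor with DMSO, and its JQ1 change there was −0.37. PI3, the elastase inhibitor elafin, had group means of 4.65, 4.80, 11.30 and 7.24 in the same order and departed by −4.20 (SE 0.20). SERPINB3, a squamous epithelial protease inhibitor, was under the floor in 9 arrays and between 7.28 and 7.62 with mocetinostat only. Its fitted departure of −4.83 rests on signals not above background, and with values raised to the floor it was −3.89.

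Matrix proteases behaved alike in part. Of 16 measured genes of the urokinase system and matrix proteases, 6 were below the sum and 0 above. MMP3, stromelysin-1, read 3.18, 3.38 and 3.09 with DMSO, 2.94, 3.09 and 3.29 with JQ1, 6.54, 6.75 and 6.88 with mocetinostat, against 4.23, 4.38 and 4.07 with the combination. The combination arrays lay between the mocetinostat arrays and the rest, with no overlap (departure −2.39, SE 0.19, adjusted p = 1.2e-05). MMP13, a collagenase, departed by −1.67 (SE 0.30), MMP7 by −1.59 (SE 0.24; −0.70 and not called with values raised to the floor) and MMP1 by −1.06 (SE 0.15), the last at −0.98 and short of 2-fold without combination replicate 3. CDH1, the epithelial adhesion protein E-cadherin, which MDA-MB-231 cells largely lack, had group means of 3.53 with DMSO, 3.94 with JQ1, 6.31 with mocetinostat, against 4.17 with the combination, a departure of −2.55 (SE 0.29).

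Across the 377 probe sets that only mocetinostat raised and that fell short of the sum, the combination was not called against DMSO (higher in 5.23% and lower in 4.63% of all probe sets) in 247, still above it in 127 and below it in 3. In 219 the combination was lower than mocetinostat, a call made for 1.74% of all probe sets. The median JQ1 change was 0.25 without mocetinostat and −1.18 in its presence. With DMSO 56.5% of them lay under the level 1 log2 unit above the floor, as did 54.0% of the 1602 that only mocetinostat raised and that were not called for departure, and 65.0% of all probe sets. The part of this low starting level in the departures was not tested.

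A smaller set was raised by both compounds and gained little from the pair. ID1, an inhibitor of helix-loop-helix transcription factors and a target of BMP signalling, read 9.20, 9.34 and 9.24 with DMSO, 12.45, 12.44 and 12.47 with JQ1, 12.41, 12.37 and 12.34 with mocetinostat, against 12.77, 12.79 and 12.55 with the combination. Its expected level of 15.56 is above any signal on these arrays, and the measured combination exceeded each compound by less than 2-fold (departure −2.86, SE 0.13, adjusted p = 4.0e-07). ID3 showed the same order well inside the range, with group means of 4.98, 8.27, 8.21 and 9.17 and an expected level of 11.49 (departure −2.33, SE 0.17). ARRDC4, an arrestin-domain protein, read 5.96, 5.34 and 5.63 with DMSO, 9.44, 9.30 and 9.32 with JQ1, 8.44, 8.44 and 8.38 with mocetinostat, against 9.82, 9.82 and 9.83 with the combination, where an additive gain would have given 12.13 (departure −2.31, SE 0.19). SERPINI1, neuroserpin, departed by −2.41 (SE 0.18), and SMAD7 and BAMBI, both inhibitors in TGF-β and BMP signalling, by −1.85 (SE 0.22) and −1.64 (SE 0.13). Of the 17 measured genes of BMP signalling, 6 were below the sum and 1 above, and ID2 (0.15) and ID4 (0.37) were not called. Of the 191 probe sets in this class, 183 were still higher with the combination than with DMSO, against 5.23% of all probe sets. Between the combination and mocetinostat 180 were not called. In that comparison 1.18% of all probe sets were called higher and 1.74% lower.

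INHBA, the activin βA subunit, belongs to the same list but to another pattern. It read 6.80, 6.94 and 6.64 with DMSO, 5.41, 5.63 and 5.62 with JQ1, 9.96, 9.97 and 9.92 with mocetinostat, against 5.55, 5.76 and 5.96 with the combination. Mocetinostat alone stood above all other arrays, and the combination overlapped JQ1, 18.3-fold below mocetinostat (departure −2.96, SE 0.17, adjusted p = 1.4e-06). INHBA started well above the floor, and JQ1 lowered it by 1.24 without and 4.20 with mocetinostat.

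Some genes were driven below both single treatments. There were 59 such probe sets and 38 such genes, against 1.93% of all probe sets lower with the combination than with JQ1 and 1.74% lower than with mocetinostat. EHF, an ETS transcription factor of epithelia, read 10.29, 10.32 and 10.23 with DMSO, 9.85, 9.85 and 9.87 with JQ1, 10.48, 10.46 and 10.37 with mocetinostat, against 7.72, 7.55 and 7.50 with the combination. Neither compound alone moved it past the filter, and all 3 combination arrays lay more than 2 log2 units under the other 9 (departure −2.43, SE 0.12, adjusted p = 5.0e-07). EMP1, an epithelial membrane protein, had group means of 9.91, 9.22, 9.29 and 6.60 (departure −2.01, SE 0.14). ADAMTS12, a secreted metalloprotease, departed by −2.08 (SE 0.13), the phosphatase INPP4B by −1.49 (SE 0.16) and the growth factor TGFB2 by −1.38 (SE 0.11). KRT7, a simple-epithelial keratin, was raised by JQ1 alone to a mean of 9.08, from 7.81 with DMSO, and stood at 6.25 with the combination (departure −2.65, SE 0.21). A second KRT7 probe set of lower signal departed by −1.69 and was called too. The median DMSO level of the 59 was 7.81, and 1 of them lay under the level 1 log2 unit above the floor with DMSO.

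**Figure D4:**
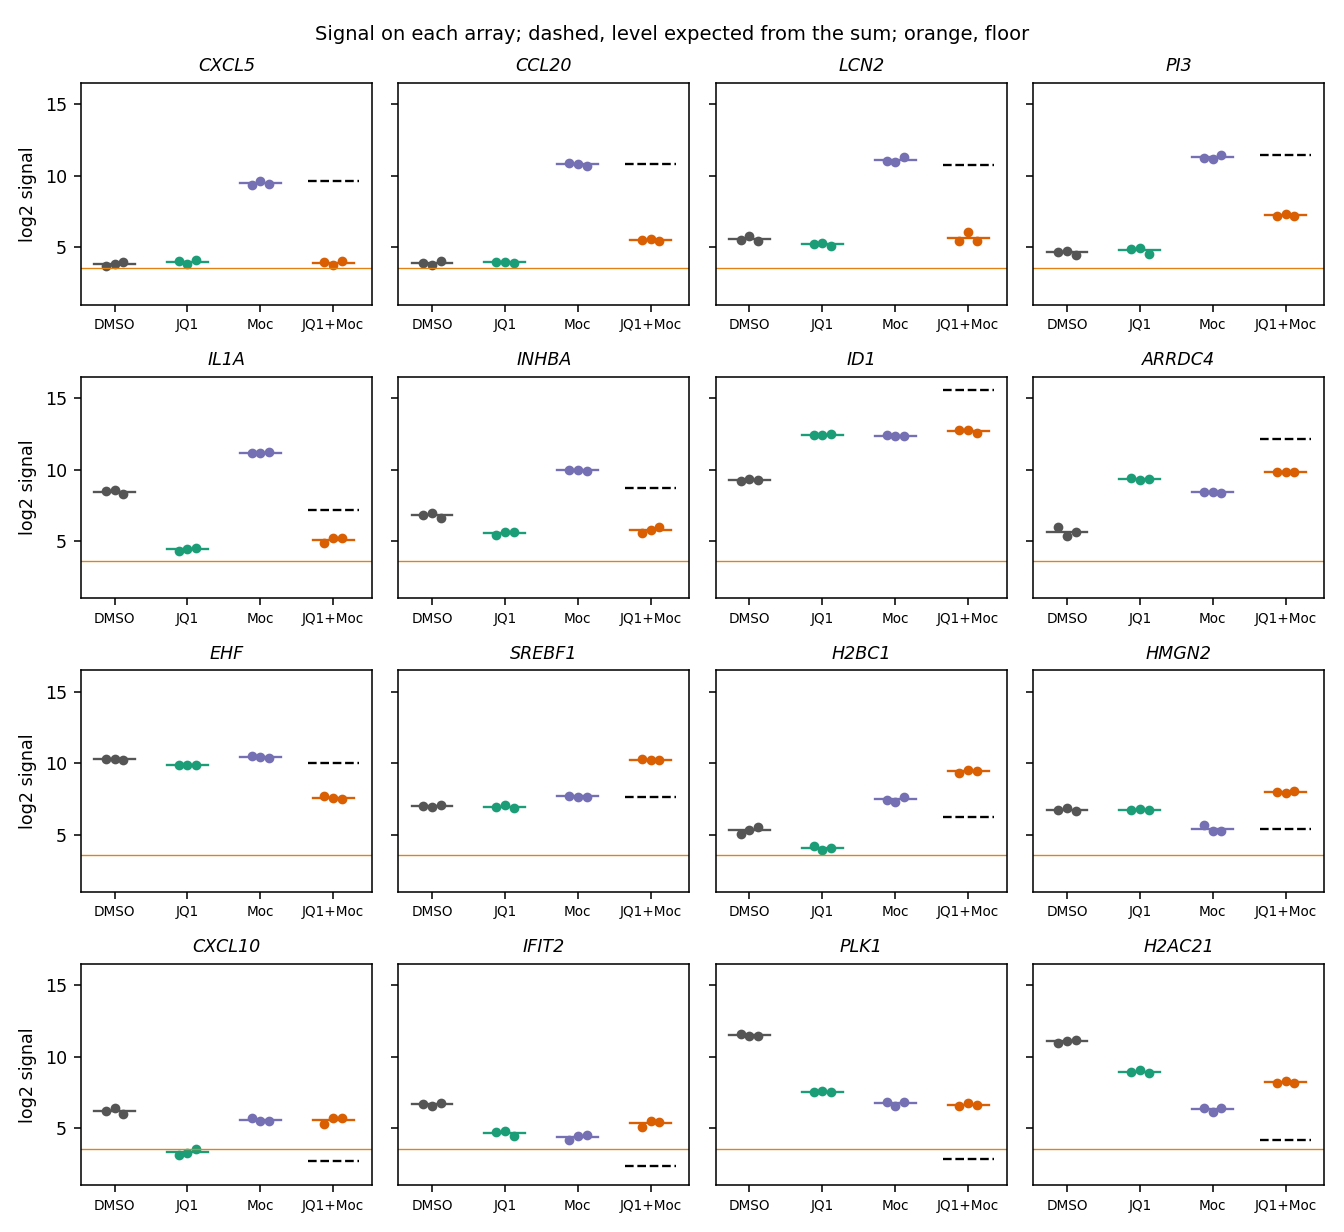
Log2 signal of 16 genes on each of the 12 arrays (points, 3 per treatment; short lines are means; Moc is mocetinostat). The dashed line over the combination is the level expected from the sum and the orange line is the floor at 3.57; in the first 9 panels the combination lies below the dashed line and in the last 7 above it, and for CXCL10, IFIT2 and PLK1 the dashed line is under the floor.

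Genes above both single treatments were the mirror image. By the filter 124 of 22392 genes were higher with the combination than with each compound. Those also called above the sum were 162 probe sets and 67 genes, and these are described here. With each comparison taken alone, 3.16% of all probe sets were higher with the combination than with JQ1 and 1.18% higher than with mocetinostat. SREBF1, which encodes the SREBP-1 transcription factors of lipid synthesis, read 7.03, 6.97 and 7.08 with DMSO, 6.91, 7.11 and 6.85 with JQ1, 7.74, 7.62 and 7.67 with mocetinostat, against 10.27, 10.21 and 10.21 with the combination. The combination arrays stood 5.86-fold above mocetinostat and 9.65-fold above JQ1, with no overlap, and neither compound alone passed the filter (departure 2.62, SE 0.13, adjusted p = 5.0e-07). FASN, fatty acid synthase, had group means of 8.09, 8.56, 7.18 and 9.58 (departure 1.93, SE 0.14). IDI1 (1.29, SE 0.13) and HMGCS1 (1.28, SE 0.14), enzymes of the mevalonate pathway, and INSIG1, a brake on SREBP processing (1.10, SE 0.12), also exceeded each compound alone. In the cholesterol list, 17 genes were measured, and 5 were above the sum and 0 below, with a median departure of 0.29, and 10 had an interval within 2-fold of the sum. In the fatty acid list 3 of 26 measured genes were above the sum and 1 below, with a median departure of −0.19, and the combination exceeded each compound in 2. FDPS, which makes farnesyl pyrophosphate, was above the sum (1.08, SE 0.15) without a rise, with group means of 6.61, 5.90, 5.59 and 5.96.

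Further genes above both compounds came from different lists or none. H2BC1, an H2B histone gene of testis, read 5.07, 5.32 and 5.52 with DMSO, 4.18, 3.94 and 4.10 with JQ1, 7.42, 7.31 and 7.66 with mocetinostat, against 9.33, 9.50 and 9.45 with the combination. JQ1 lowered it from DMSO by 1.23 and raised it from mocetinostat by 1.96 (departure 3.19, SE 0.19, adjusted p = 1.7e-06). HMGN2, a nucleosome-binding protein, had group means of 6.75, 6.75, 5.41 and 7.99, so mocetinostat lowered it without JQ1 and raised it with JQ1 (departure 2.58, SE 0.17). LIPG, endothelial lipase, departed by 3.10 (SE 0.14), MIR7-3HG, the host transcript of a miR-7 copy, by 3.50 (SE 0.28), and VGF, a neuropeptide precursor, by 2.51 (SE 0.31). SOCS1, a feedback inhibitor of cytokine receptors, departed by 2.32 (SE 0.14) and CDKN1C, the cyclin-dependent kinase inhibitor p57, by 2.30 (SE 0.16). FOS, the AP-1 subunit, rose with each compound and further with both, with group means of 5.40, 6.76, 6.88 and 9.50 (departure 1.25, SE 0.16). The median DMSO level of the 162 was 4.16, and 54.9% of them lay under the level 1 log2 unit above the floor with DMSO, where a single change is compressed, against 65.0% of all probe sets. The part of that compression in these departures was not tested. SREBF1, H2BC1, HMGN2, LIPG, SOCS1 and FOS all started above that level.

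Interferon-stimulated genes, which encode antiviral proteins and the factors that induce them, were above the sum in 15 of 25 cases and below it in 1, with a median departure of 1.24. Above the sum did not mean raised. Against DMSO the combination lowered 12 of the 25 and raised 4, with a median change of −0.64. JQ1 alone lowered 14 and raised 2, and mocetinostat alone lowered 8 and raised 3. The single changes differed between genes. Both compounds lowered IFIT2, an RNA-binding antiviral protein, from 6.71, 6.59 and 6.75 with DMSO to 4.74, 4.83 and 4.48 with JQ1 and 4.19, 4.44 and 4.52 with mocetinostat, and the combination read 5.10, 5.49 and 5.47. The combination arrays lay above both single treatments and under DMSO, where the sum would be 2.38, under the floor (departure 2.97, SE 0.20, adjusted p = 3.7e-06). CXCL10, a chemokine induced by interferon, read 6.23, 6.42 and 6.01 with DMSO, 3.15, 3.28 and 3.54 with JQ1, 5.75, 5.48 and 5.50 with mocetinostat, against 5.33, 5.69 and 5.71 with the combination. The loss with JQ1 was not seen in the presence of mocetinostat, where the JQ1 difference was 0.00 (departure 2.90, SE 0.22, adjusted p = 7.8e-06).

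A group of 3 interferon genes rose beyond each compound. IRF7, the transcription factor that amplifies interferon production, read 5.79, 5.98 and 5.64 with DMSO, 7.19, 7.66 and 7.26 with JQ1, 7.09, 6.76 and 6.96 with mocetinostat, against 10.50, 10.39 and 10.51 with the combination. The combination stood 11.5-fold above mocetinostat and 8.55-fold above JQ1 (departure 1.96, SE 0.20, adjusted p = 8.1e-05). IRF9, the DNA-binding subunit of the factor ISGF3, departed by 2.04 (SE 0.17) and the ubiquitin-like ISG15 by 1.71 (SE 0.16). A second, dimmer IRF9 probe set departed by 0.49 and was not called. The 1 gene below the sum was IFI6, an interferon-induced mitochondrial protein, which each compound raised and the pair raised no further (departure −1.37, SE 0.14). Of the 15 above the sum, 7 had an expected level under the floor, and 9 were still called when bounded by it.

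The upstream sequences of IFI44 and CXCL10 are shown for the interferon-stimulated response element, searched on both strands as a pair of GAAA copies with 2 bases of any kind between them. They are the 250 bases before the RefSeq start (GRCh38.p14), IFI44 on the plus strand at chr1:78649539-78649788 and CXCL10 on the minus strand at chr4:76023498-76023747, with the match in capitals 18 and 221 bases before the start. In IFI44 the match is on the opposite strand.
IFI44: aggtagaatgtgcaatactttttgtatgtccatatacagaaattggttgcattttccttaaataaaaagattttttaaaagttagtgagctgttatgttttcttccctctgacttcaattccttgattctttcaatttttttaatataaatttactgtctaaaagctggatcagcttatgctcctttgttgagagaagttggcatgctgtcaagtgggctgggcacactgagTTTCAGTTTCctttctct
CXCL10: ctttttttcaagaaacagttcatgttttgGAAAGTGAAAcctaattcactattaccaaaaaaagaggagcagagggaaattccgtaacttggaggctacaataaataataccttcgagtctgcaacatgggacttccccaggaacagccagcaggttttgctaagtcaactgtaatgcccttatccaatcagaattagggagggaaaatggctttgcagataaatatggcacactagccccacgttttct
The element was present in 12 of 20 listed interferon genes with a promoter of this length (60.0%), in 7 of the 12 above the sum with one (58.3%), and in 2.67% of all 15487 genes. IFI44, a gene of the interferon response, went from a DMSO mean of 7.14 to 3.85 with JQ1, 4.01 with mocetinostat, against 3.66 with the combination, and its expected level of 0.72 is far under the floor. Beside its departure of 2.94 (SE 0.24) stands the fact that any signal at the floor would lie above this sum.

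Cell-cycle genes were above the sum in most cases. All 68 measured mitosis genes were lowered by each compound alone and by the combination, and 66 were above the sum and 0 below, with a median departure of 2.73. The expected level was under the floor for 51 of the 68. The combination signal stood at least 1 log2 unit above the floor in 52, and 48 were still called when bounded by the floor. PLK1, a mitotic kinase, read 11.58, 11.48 and 11.44 with DMSO, 7.57, 7.64 and 7.52 with JQ1, 6.83, 6.59 and 6.87 with mocetinostat, against 6.58, 6.76 and 6.62 with the combination. The combination overlapped mocetinostat more than 3 log2 units above the floor, against an expected 2.84 (departure 3.82, SE 0.14, adjusted p = 1.9e-07). DEPDC1, a cell-cycle gene, had the largest departure of a named gene (4.34, SE 0.19), but its 9 treated arrays lay between 3.60 and 4.50, near the floor, and its expected level was −0.56. CDCA8, borealin of the chromosomal passenger complex, had group means of 10.20, 6.52, 5.17 and 5.44 (departure 3.94, SE 0.26).

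The upstream sequences of DEPDC1 and CDCA8 are shown because both hold the letters of the cell-cycle genes homology region. It is an element of genes expressed in G2 and M, searched as TTTGAA on both strands. The 250 bases before the RefSeq start (GRCh38.p14) lie on the minus strand at chr1:68497083-68497332 for DEPDC1 and on the plus strand at chr1:37692266-37692515 for CDCA8, with the match in capitals 27 and 23 bases before the start. In DEPDC1 it is on the opposite strand.
DEPDC1: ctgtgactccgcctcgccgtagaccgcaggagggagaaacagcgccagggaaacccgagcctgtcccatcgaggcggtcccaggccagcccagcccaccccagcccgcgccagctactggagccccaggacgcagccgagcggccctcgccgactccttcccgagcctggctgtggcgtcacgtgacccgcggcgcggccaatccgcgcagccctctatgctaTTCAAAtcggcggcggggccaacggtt
CDCA8: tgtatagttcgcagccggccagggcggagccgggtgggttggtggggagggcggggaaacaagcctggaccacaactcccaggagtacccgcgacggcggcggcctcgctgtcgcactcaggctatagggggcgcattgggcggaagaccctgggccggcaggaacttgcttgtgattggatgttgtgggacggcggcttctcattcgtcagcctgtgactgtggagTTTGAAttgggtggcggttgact
The letters were present in 26 of the 60 mitosis genes above the sum with a promoter of this length (43.3%). The same 60 are all the listed mitosis genes with one, so this share cannot speak to departure. Among genes above the sum that both compounds lowered, 85 of 373 held them (22.8%), against 11.1% of all 15487 genes. Of DNA replication genes above the sum, 1 of 31 did (3.23%). These matches are descriptions of the letters and not evidence of binding.

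DNA replication genes were further from the floor. Of 42 measured, 34 were above the sum and 0 below, with a median departure of 1.63, and 26 of the 34 had an expected level at or above the floor. Of 14 homologous recombination genes 12 were above the sum, of 20 G1/S and E2F genes 12, and of 16 replication-dependent histone genes 7, with 0 below in each. Of those above, 3, 7 and 5 in this order had an expected level at or above the floor, and with the bound 7 of the homologous recombination genes were still called. H2AC21, an H2A histone gene, read 10.99, 11.14 and 11.17 with DMSO, 8.94, 9.06 and 8.86 with JQ1, 6.43, 6.16 and 6.42 with mocetinostat, against 8.20, 8.29 and 8.20 with the combination. The combination was 3.70-fold above mocetinostat with no overlap, so JQ1 raised it there after lowering it from DMSO (departure 4.04, SE 0.15, adjusted p = 1.9e-07). H2BC14 had group means of 12.32, 8.57, 7.30 and 7.24, with a departure of 3.68 (SE 0.18). Histone genes of one type are near copies, so probes may read several of them.

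Over the 563 probe sets above the sum that both compounds lowered, 402 were not called between the combination and either compound. Against mocetinostat, 529 were not called. The lack of a call is common, since over all probe sets 1.18% were higher and 1.74% lower than with mocetinostat. Against JQ1 the shares were 3.16% and 1.93%. Differences short of 2-fold are not called. In the 563 the median JQ1 change was −1.83 without mocetinostat and −0.07 in its presence. The expected level was under the floor in 333 of them. Among the 349 probe sets that both compounds lowered and whose expected level was at or above the floor, 230 were above the sum. Fewer cycling cells and less transcript per cell cannot be told apart in RNA from whole cultures.

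**Figure D5:**
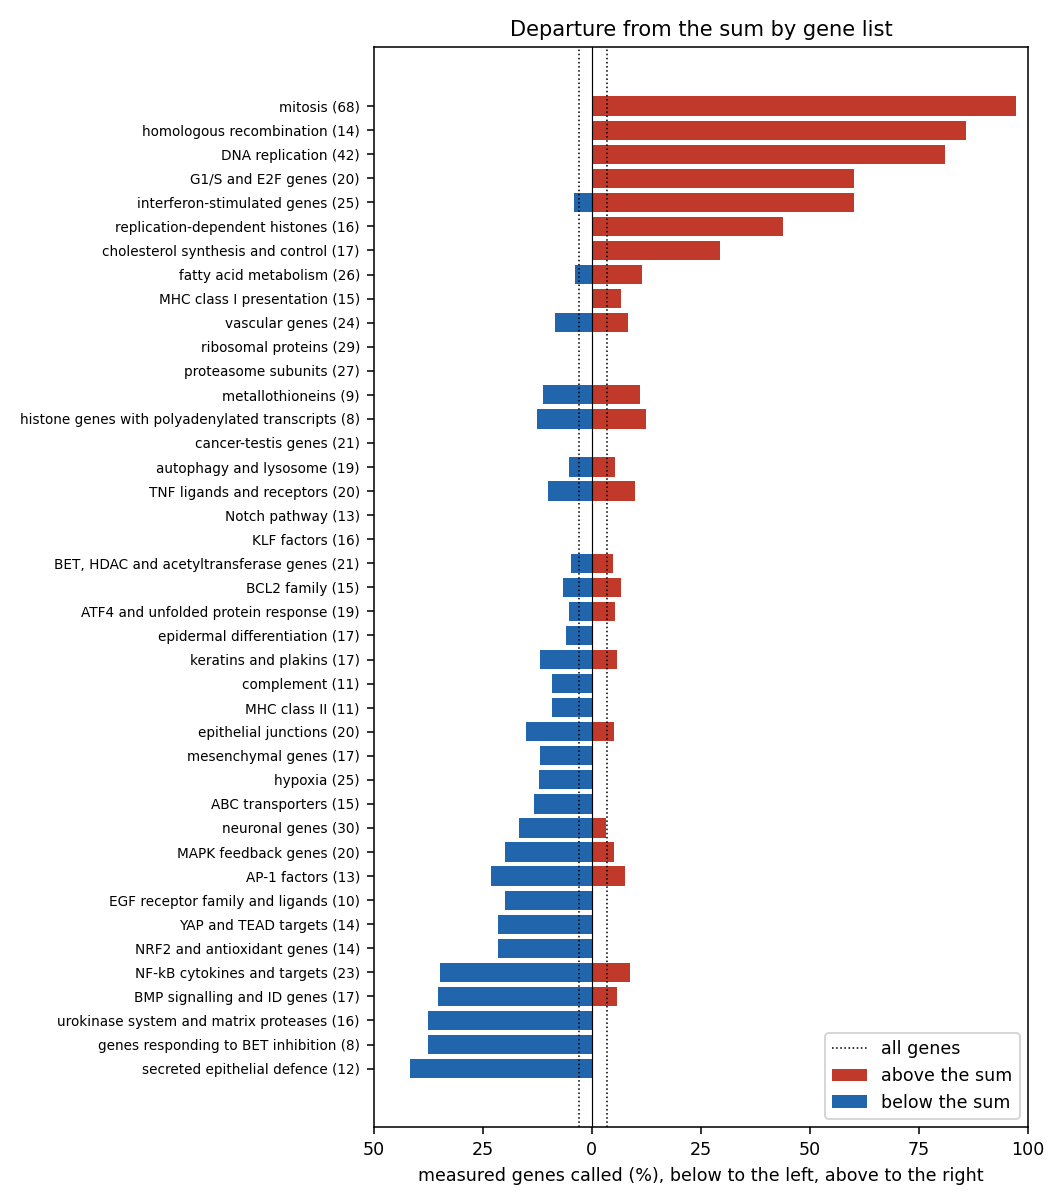
Share of measured genes above the sum (red, to the right) and below it (blue, to the left) for gene lists with at least 8 measured genes, the number measured in brackets; the dotted lines are the shares over all genes, 3.39% above and 2.91% below. Mitosis (66 of 68) and DNA replication (34 of 42) stand at the top, epithelial defence (5 of 12) and the urokinase and matrix protease list (6 of 16) near the bottom, and ribosomal proteins and proteasome subunits have none.

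The USP17 deubiquitinase family, from which the series takes its title, was above the sum for the 3 members that have their own probe set, each higher with the combination than with either compound, but 1 call of the 3 held throughout the checks of the floor and of single arrays. USP17L5 had group means of 5.06, 5.65, 9.97 and 11.94, above an expected 10.56 (departure 1.39, SE 0.19, adjusted p = 5.4e-04). USP17L15 departed by 1.97 (SE 0.38) and lost the call without mocetinostat replicate 1 (1.93) or without combination replicate 2 (1.91). USP17L9P was under the floor with DMSO (2.07), JQ1 (2.07) and mocetinostat (2.15), and its fitted departure of 1.97 was 0.63 and not called with values raised to the floor. Of the probe sets shared between members, the one for USP17L10 and USP17L13 was called (2.86, SE 0.31, from a DMSO level of 3.44, under the floor). Those led by USP17L12, USP17L9P and USP17L6P (0.73 to 0.81) were not. The one led by USP17L3 (0.47) was not called either, but its highest group mean was 2.70, under the floor, so it cannot show a departure or additivity. Members of the family are near copies and share most probes, so these are not independent genes.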

How the data were processed

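RNA of MDA-MB-231 cells was measured on 12 Affymetrix arrays. The authors deposited log2 signals for 53617 probe sets, summarized by RMA, which subtracts background and quantile-normalizes the arrays, and its version is not given in the sources used here. No filter or further normalization was applied. Arrays were grouped by title and source name, which match each other, because the description field of most arrays names another treatment. The mocetinostat dose is that of the labels, and the study's text gives it as 3 μM. The labels say nothing more about replicates than a number, so p-values measure the spread between these arrays. Arrays give no read depth, and their number limits the precision.

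The model in limma (version 3.58.1, R 4.3.3) held a mean per treatment over all arrays, leaving 8 residual degrees of freedom. The contrast was combination minus JQ1 minus mocetinostat plus DMSO, with the study's filter for calls, an unadjusted p below 0.001 with a difference of 2-fold or more. Benjamini-Hochberg adjusted p-values cover all probe sets. Single changes were called by the same filter. Tested on simulated data with these probe sets and this number of arrays, departures of 2-, 3-, 4- and 8-fold were called for 21, 47, 47 and 50 of 50. Of 53417 unchanged probe sets 32 were called. The simulated levels had no floor, so these counts do not cover departures that a floor forces.

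From a probe annotation table, 23866 probe sets have 1 gene symbol, 1852 have several and 27899 are unnamed. A gene is represented by its single-symbol probe set of highest mean signal. The 2113 probe sets that share their values with another were kept. The 42 gene lists hold 932 entries, of which 797 were measured. Members and lists were chosen with earlier results of these data known, so no list was tested as a set. Genes were named by size of departure (12 per direction, up to 4 per pattern and per list, and 6 per direction beyond both compounds). IL1A, IL6, CXCL8, ICAM1, IL11, CSF3, IRF9, ISG15, IFI6, BAMBI, MMP1, SREBF2, FDPS, ID2, ID4 and the shared USP17 probe sets were added after their values were seen. The replicate numbers of the labels were not used as pairs. Alternatives covered scaling, the floor, the fold and p thresholds, the variance model, blocks and each array left out.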

Additional observations from a re-analysis of the deposited data

Results flagged for a closer look

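For some genes the effect of one compound changed sign in the presence of the other, by the 2-fold filter in both settings, with the departure as the test of the difference (limma). For mocetinostat this held for 7 probe sets and 4 genes. DMBT1, a mucin-like scavenger receptor protein, fell by 1.16 without JQ1 and rose by 1.78 with it, a departure of 2.94 (SE 0.15) from means of 6.57 in DMSO, 4.01 in JQ1, 5.41 in mocetinostat and 5.80 in the combination arrays. ANGPTL4, an inhibitor of lipoprotein lipase, rose by 1.48 without JQ1, while with JQ1 its mocetinostat change was −1.45 (departure −2.93, SE 0.18). JQ1 alone had raised ANGPTL4 from 5.66 to 9.02. HMGN2 departed by 2.58 (SE 0.17) and LIPH, a phospholipase, by −2.38 (SE 0.14), the latter with mocetinostat changes of 1.36 without and −1.02 with JQ1.

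For JQ1 the sign changed in 21 probe sets and 10 genes, of which the 5 with the largest departures are given. H2AC21 (4.04) and H2BC1 (3.19) are described above with their arrays. KIF20B, a mitotic kinesin, changed by −2.29 with JQ1 alone and by 1.00 in the presence of mocetinostat (departure 3.30, SE 0.17). IL18, a cytokine of the interleukin-1 family, changed by 2.18 and −1.07 (departure −3.25, SE 0.28), and CREB3L3, a membrane-bound transcription factor, by 1.09 and −2.15 (departure −3.24, SE 0.21).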

How the results depend on the processing

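With an adjusted p under 0.05 and 2-fold, moderation with trend and robust settings, ribosomal scaling or identical probe sets counted once, all 176 named genes kept their call or lack of it. Without a minimum fold, 1732 probe sets were above and 1969 below the sum, 354 above and 335 below both compounds, 1008 above where both fell and 756 below where both rose. At 3-fold these were 459, 285, 47, 9, 273 and 41, with 144 below where only mocetinostat rose and 263 above with the expected level under the floor. Requiring all means and the expected level at or above the floor left 598 above the sum, 97 above both compounds, 230 where both fell, 251 below where only mocetinostat rose, 0 with the expected level under the floor and 16563 within 2-fold. Requiring only 1 group mean at the floor left 19642 within 2-fold. Counted anew over all probe sets with values raised to the floor, 754 were above the sum, 345 where both fell and 142 with the expected level under it. The 747 and 147 given earlier instead follow the probe sets that were called without the bound. With raised values 21 named genes lost the call, DEPDC1, IFI44, MMP7 and USP17L9P among them. Probe sets of 1 symbol gave 70 above and 38 below both compounds and 18285 within 2-fold. In this section, counts above or below both compounds are of probe sets also called on that side of the sum.

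Leaving out each array gave 1001 to 1058 above and 873 to 975 below the sum, 137 to 166 above and 53 to 67 below both compounds, 538 to 561 above where both fell, 179 to 203 below where both rose, 349 to 384 below where only mocetinostat rose, 382 to 418 with the expected level under the floor, and 37384 to 37982 within 2-fold. The replicate numbers showed no pairing, since deviations of arrays of the same number correlated between −0.11 and 0.05 over 18 pairs. With the replicate number as a block 1049 were above and 913 below the sum, and 2 of 176 named genes lost the call. With the number in the titles as a block the counts moved further, to 917 above and 789 below the sum and 120 above both compounds. In that fit 285 were below where only mocetinostat rose, and 31108 lay within 2-fold. The title numbers are spread unevenly over the treatments. With this block 16 of the 176 named genes lost the call, including MMP7, MMP13 and USP17L9P.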

Other observations

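Among gene lists not yet described, AP-1 factors had 3 of 13 measured genes below the sum and 1 above, NRF2 and antioxidant genes 3 of 14 below, YAP and TEAD targets 3 of 14 below, hypoxia genes 3 of 25 below and EGF receptor ligands and receptors 2 of 10 below, with 0 above in the last 4. Neuronal genes had 5 of 30 below and 1 above. SYT11, a synaptotagmin, departed by −1.99 and MAPT, the microtubule protein tau, by −1.77. Over all genes 3.39% were above the sum and 2.91% below, so 0 calls in a short list is not a finding. Notch pathway genes, KLF factors and cancer-testis genes had 0 called by limma in either direction, of 13, 16 and 21 measured. Their median departures were −0.02, −0.16 and −0.22.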
